A study of Mus musculus with 8 samples.

Results

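Transcripts of the tubulins, the stathmins and the microtubule-binding proteins were measured in sorted cells of the neonatal mouse cochlea. The members were taken by symbol from the NCBIM37 annotation, as the protein-coding genes of the alpha-, beta-, gamma-, delta- and epsilon-tubulins, the gamma-tubulin complex, the stathmins, the TPPP proteins and the structural microtubule-associated proteins (MAPs). The rule found 41 genes among the 36536 genes with counts. It used symbols alone, but it was set with earlier results of these data known. The study had already named *Stmn1* and *Tppp* among its candidate maturation genes enriched in P6 supporting cells, and *Tppp* as enriched at P1 too. By its in situ hybridization, however, *Tppp* was ubiquitous in the cochlea at P1 and in supporting cells at P6. By role the 41 genes were 8 alpha-tubulins, 8 beta-tubulins, 7 gamma-tubulins and complex proteins, 2 delta- and epsilon-tubulins, 4 stathmins, 3 TPPP proteins and 9 MAPs.

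All animals carried the LFng-GFP BAC transgene, in the strain B6;FVB-Tg(Lfng-EGFP)HM340Gsat/Mmucd. The transgene puts GFP into Deiters' cells, outer pillar cells, border cells and inner phalangeal cells, which are supporting cells around the hair cells. On sections, GFP was not seen in inner pillar cells. Cochleas were taken at postnatal day 1 (P1) and postnatal day 6 (P6) and were dissociated and sorted fresh, with neither culture nor drug. The 4 groups are P1 GFP+, P1 GFP-, P6 GFP+ and P6 GFP-, with 2 libraries each (n = 2 per group throughout), and each library pools sorted cells of many cochleas. GFP+ means the brightest gate alone, because cells of dim fluorescence were not collected. The study proposes that the dim cells were likely inner pillar cells and inner hair cells, with very low levels of the transgene. These types may thus be largely missing from both fractions. GFP- is a mixture of the other cells left in the dissected tissue. The dissection differed between the ages, so that the kinds of cells in the GFP- fraction can differ with age. In such bulk samples, fewer cells of a type and less RNA per cell cannot be told apart.

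Microtubules are hollow polymers of alpha- and beta-tubulin pairs, and each tubulin comes in several isotypes made from separate genes. Gamma-tubulin and its complex start new microtubules, delta- and epsilon-tubulin belong to centrioles, stathmins bind free tubulin and favour disassembly, and MAPs and TPPP proteins bind, bundle or stabilize the polymer. Pillar and Deiters' cells are known for dense parallel bundles of microtubules that run the length of the cell and stiffen the organ of Corti, and these bundles form in the days after birth.

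The isotypes differ most at their C-terminal tails, which face outward on the microtubule and take up glutamate side chains, so the ends of the coding regions of the isotypes that carry the results are shown here. Each run is the last 60 coding bases plus the stop codon, read 5′ to 3′ on the coding strand of the NCBIM37 genome. In the beta-tubulins, capitals mark the in-frame glutamate codons (GAA or GAG).
*Tubb2a*, chr13:34166337-34166399, minus strand: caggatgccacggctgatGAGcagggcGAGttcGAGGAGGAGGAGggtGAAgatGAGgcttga
*Tubb2b*, chr13:34219340-34219402, minus strand: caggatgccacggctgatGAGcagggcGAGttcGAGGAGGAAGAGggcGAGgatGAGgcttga
*Tubb2c*, chr2:25077828-25077890, minus strand: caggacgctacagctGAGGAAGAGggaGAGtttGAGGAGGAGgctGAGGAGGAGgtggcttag
*Tubb3*, chr8:125945520-125945582, plus strand: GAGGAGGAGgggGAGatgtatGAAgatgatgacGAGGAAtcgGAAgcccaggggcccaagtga
*Tubb5*, chr17:35971927-35971989, minus strand: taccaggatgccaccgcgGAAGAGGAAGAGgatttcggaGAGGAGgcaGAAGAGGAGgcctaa
Most alpha-tubulins end in a tyrosine that cells remove and add back. The ends of 2 alpha-tubulins without it are shown, with the last coding codon in capitals.
*Tuba4a*, chr1:75212197-75212259, minus strand: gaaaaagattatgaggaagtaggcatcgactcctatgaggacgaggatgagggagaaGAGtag
*Tuba8*, chr6:121176035-121176097, plus strand: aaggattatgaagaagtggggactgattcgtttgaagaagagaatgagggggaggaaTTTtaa

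Of the last 20 codons, 10 code for glutamate in *Tubb2c*, 9 in *Tubb5* and 8 each in *Tubb2a*, *Tubb2b* and *Tubb3*. *Tuba4a* ends in a glutamate codon and *Tuba8* in a phenylalanine codon, so neither encodes the terminal tyrosine. The near identity of the *Tubb2a* and *Tubb2b* ends extends through much of their transcripts, and *Tuba1a*, *Tuba1b* and *Tuba1c* are near copies of each other as well. Stretches of 100 bases that occur exactly in another annotated gene made up 48.4% of such stretches of *Tuba1a*, 58.6% of *Tuba1b* and 53.6% of *Tuba1c*, 36.6% of *Tubb2a* and 29.8% of *Tubb2b*. The share was 2.3% for *Tubb2c* and 0% for *Tubb3*, *Tubb5* and *Tppp*. Reads aligned to more than 1 place were left out of the counts, so levels of the similar isotypes are uncertain, as is the split between them. *Stmn1* shares 32.3% with a gene model named *Gm11223*, *Mtap4* 18.8% with an overlapping model of the same symbol, and *Tubgcp4* 20.8% with *Trp53bp1* on the opposite strand. *Tuba4a* overlaps *Stk16* over 27.3% and *Tuba8* overlaps the antisense model *Gm15856* over 12.7%, and because the library kit does not mark strand, reads of the overlapping parts cannot be assigned to either gene by strand.

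The libraries held 17769024 to 67695039 counts on genes, and levels are given as CPM, the count scaled to a gene total of 1000000. The 8 supporting cell markers summed to 8090 and 8630 CPM in the P1 GFP+ libraries and to 6930 and 5240 CPM at P6, against 454 to 548 CPM in the 4 GFP- libraries. These markers were picked with the enrichment of these same samples known, so they are no independent check of the sort. The 8 hair cell markers with counts summed to 699 and 801 CPM in P1 GFP+ and 437 and 516 CPM in P6 GFP+ cells. GFP- cells held 476 and 442 CPM at P1 and 353 and 392 CPM at P6. *Myo6* gave most of each sum and differed by 0.39 at P1 and -0.19 at P6 on the log2 scale. *Otof* and *Pou4f3* were higher in GFP+ cells, by 3.39 and 3.61 at P1 and 2.74 and 4.36 at P6. *Atoh1* was higher by 4.61 at P1 and *Myo7a* by 1.76. At P6 *Myo7a* was higher by 0.89, and *Atoh1* by 6.48 from 15 and 31 counts in GFP+ and 1 and 0 in GFP- libraries. *Tmc1* overlapped between the fractions at P1 and was higher by 2.66 at P6. *Slc17a8* overlapped at both ages. *Pvalb* overlapped at P1 and was higher by 0.80 at P6. The 2 P6 GFP+ libraries differed. They were compared over 548 genes that GFP- cells at P1 held at 16-fold or more above GFP+ cells. These genes also had 20 or more counts in the P6 GFP+ libraries together. Replicate 2 of the P6 GFP+ group lay above replicate 1 by a median of 1.72 on the log2 scale. The P1 GFP+ libraries differed by a median of 0.01 over the same genes, but they had helped to select them. P1 GFP- replicate 2 held 692 CPM of 10 neuron markers and replicate 1 held 296 CPM. Summed over 7 markers, Schwann cell transcripts were at 293 and 146 CPM in P1 GFP+ and 929 and 2320 CPM in P6 GFP+ libraries. The GFP- libraries held 792 and 803 CPM of them at P1 and 1530 and 1800 CPM at P6. Red cell markers went from 5.76 and 11.9 CPM to 20.9 and 76.5 CPM in GFP+ cells, against 213 to 549 CPM in GFP- cells. Summed neuron and cycling cell markers overlapped between the ages in GFP+ cells. The part of such cells in the age changes was not tested.

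Differences were tested with edgeR over all genes that passed a filter on low counts, and a difference was called at an adjusted p-value (p-adj) below 0.05. The stricter criteria that the study applied were a p-value below 0.01, a p-adj below 0.01 and a fold change over 4. Of the 41 members, 35 were tested at P1, 36 at P6, 36 in GFP+ cells across age and 37 in GFP- cells across age. *Tppp2*, *Tuba3a*, *Tuba3b* and *Tubal3* had 2 to 7 counts over all 8 libraries and were tested nowhere. *Tubb1*, the beta-tubulin of platelets, had 45 counts in all and was tested in GFP- cells alone, without passing. *Tuba8* had 223 counts and was not tested at P1. It entered the tests at P6 and in GFP+ cells across age through its counts in P6 GFP+ cells, the group where it was highest, so its calls there are given as a description and lend no support. It was tested in GFP- cells across age as well, through P6 GFP- cells, without passing. The counts below are over the genes tested.

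The most abundant member per kilobase of exon was *Tuba1a* in every group, at 446 CPM per kb in P1 GFP+, 330 in P1 GFP-, 965 in P6 GFP+ and 239 in P6 GFP- cells. Among the beta-tubulins the leading isotype differed between the groups. It was *Tubb2b* in P1 GFP+ cells (116 CPM per kb), *Tubb2c* in P6 GFP+ cells (546 CPM per kb) and *Tubb5* in GFP- cells of both ages (271 CPM per kb at P1 and 155 at P6). Among the proteins that act on microtubules, *Mtap4*, the MAP found in most tissues, led the MAPs at 16.2 to 33.9 CPM per kb over the 4 groups. *Stmn1* reached 131 CPM per kb in P6 GFP+ cells and 15.3 to 55.1 CPM per kb in the other groups. *Tubg1*, a gamma-tubulin, was at 10.7 to 14.3 CPM per kb, the complex gene *Tubgcp2* at 9.73 to 21.6 CPM per kb and *Tubd1* at 2.26 to 3.45 CPM per kb.

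**Figure D1:**
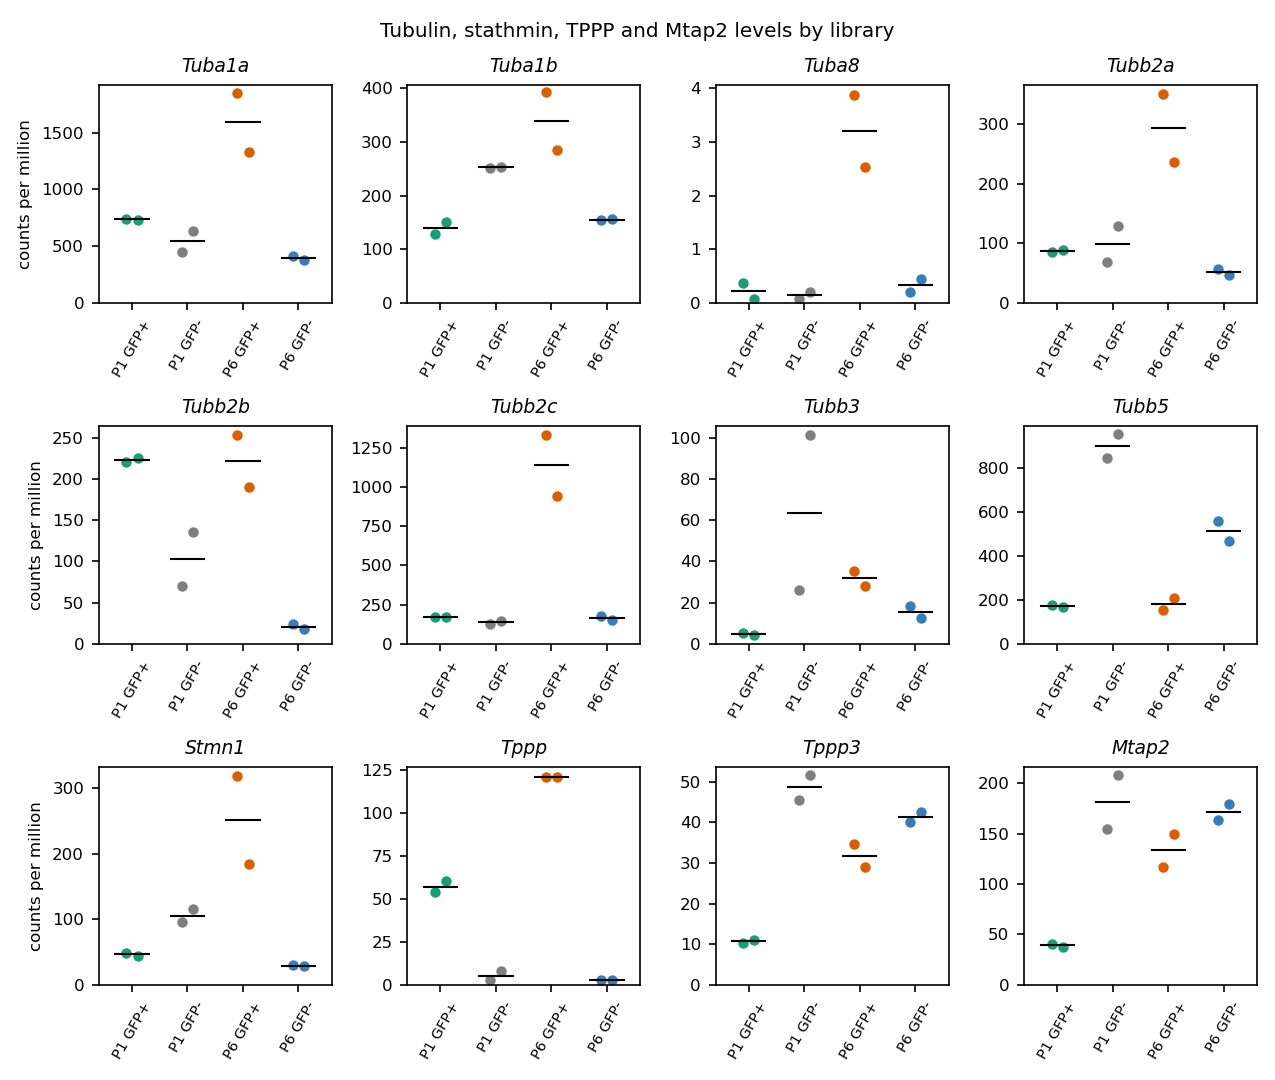
Levels of 12 members in CPM (y axis, from 0 on each panel's own scale) in the 4 groups (x axis), with a point for each library and a line at the group mean. Both P6 GFP+ points lie highest for *Tuba1a*, *Tuba1b*, *Tuba8*, *Tubb2a*, *Tubb2c*, *Stmn1* and *Tppp*, while both GFP- groups lie above both GFP+ groups for *Tubb5*, *Tppp3* and *Mtap2*.

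At P1, GFP+ cells carried more *Tppp*, *Mtap7*, *Mtap9* and *Tubb2b* and less *Tubb5*, *Tubb3*, *Stmn2*, *Stmn3*, *Stmn4*, *Mapt* and *Mtap6* than GFP- cells. Of 35 members tested, 26 passed, 9 of them higher and 17 lower in GFP+ cells. Over all 18682 genes tested at P1, 53.6% passed, 25.5% higher and 28.1% lower. The members' median difference was -0.49 on the log2 scale, against 0.01 over all genes. By the study's criteria, 2 members were higher and 11 lower, where 17.8% of all genes met the criteria, 6.46% higher and 11.4% lower. The group counts ran from 4 of 4 stathmins lower to 2 higher and 2 lower of 7 gamma-tubulins and complex proteins.

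*Tppp* encodes the tubulin polymerization promoting protein, which bundles and stabilizes microtubules. Its level was 53.7 and 60.1 CPM in the P1 GFP+ libraries and 2.77 and 8.07 CPM in the P1 GFP- libraries. Both GFP+ libraries lay far above both GFP- libraries, and the log2 difference was 3.46 (SE 0.45, p-adj = 0.00128 by edgeR). Without P1 GFP- replicate 2 the difference was 4.45. *Mtap7* encodes ensconsin, a MAP that brings kinesin to microtubules. It was at 70.5 and 69.3 CPM in GFP+ cells and at 8.10 and 15.1 CPM in GFP- cells, with no overlap. The log2 difference was 2.69 (SE 0.28, p-adj = 0.000506 by edgeR), or 6.44-fold. *Mtap9*, a MAP of the mitotic spindle, was higher by 1.45 (SE 0.17, p-adj = 0.000876 by edgeR) and *Mtap4* by 0.66 (SE 0.10, p-adj = 0.00288 by edgeR).

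Among the tubulins themselves, *Tubb2b* was higher in P1 GFP+ cells, at 220 and 225 CPM against 70.0 and 136 CPM. The libraries did not overlap, and the log2 difference was 1.21 (SE 0.29, p-adj = 0.0146 by edgeR). *Tuba1a* was at 738 and 731 CPM in GFP+ and 451 and 635 CPM in GFP- cells, a log2 difference of 0.54 (SE 0.17, p-adj = 0.0402 by edgeR). *Tubb2c*, a widely expressed beta-tubulin now called *Tubb4b*, was at 172 and 174 CPM against 129 and 145 CPM, a log2 difference of 0.44 (SE 0.09, p-adj = 0.00895 by edgeR). These 3 differences were small beside that of *Tppp*, and the calls of *Tubb2b*, *Tuba1a* and *Tubb2c* were lost when either P1 GFP+ library was left out, as were those of *Tubgcp3*, *Tubgcp4* and *Tubgcp6*. That of *Tube1* was lost without P1 GFP+ replicate 2. The p-adj of these lost calls lay between 0.051 and 0.193, and the other 19 calls at P1 held with each library left out.

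*Tubb5*, a broadly expressed beta-tubulin, was the most abundant beta-tubulin of GFP- cells and was low in GFP+ cells. Its level at P1 was 176 and 170 CPM in GFP+ and 844 and 954 CPM in GFP- cells, a log2 difference of -2.27 (SE 0.12, p-adj = 3.77e-05 by edgeR). The 9 markers of cycling cells differed the same way, at 34.1 and 33.5 CPM against 513 and 453 CPM, and their part in the difference was not tested. *Tubb6*, another widely expressed isotype, was at 2.99 and 4.10 CPM in GFP+ and 28.5 and 26.2 CPM in GFP- cells, a log2 difference of -2.86 (SE 0.18, p-adj = 8.37e-05 by edgeR). *Tppp3*, a small relative of *Tppp*, differed in the opposite direction from *Tppp*. It was at 10.4 and 11.1 CPM in GFP+ and 45.5 and 51.7 CPM in GFP- cells, a log2 difference of -2.07 (SE 0.12, p-adj = 5.26e-05 by edgeR). *Tuba1b*, a broadly expressed alpha-tubulin, was at 128 and 150 CPM against 252 and 253 CPM, a log2 difference of -0.76 (SE 0.10, p-adj = 0.00125 by edgeR), and so differed in the opposite direction from its near copy *Tuba1a*. *Stmn1*, the stathmin of dividing and immature cells, was at 48.6 and 44.7 CPM against 95.9 and 116 CPM, a log2 difference of -1.07 (SE 0.12, p-adj = 0.000775 by edgeR).

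A set of 6 members best known from neurons was lower in P1 GFP+ cells. *Tubb3*, the beta-tubulin of neurons, was at 5.48 and 4.38 CPM in GFP+ and 25.9 and 101 CPM in GFP- cells. *Stmn2* was at 5.15 and 3.70 CPM against 30.8 and 112 CPM, *Stmn3* at 3.25 and 3.05 CPM against 17.3 and 65.7 CPM, and *Stmn4* at 0.349 and 0.442 CPM against 3.51 and 12.8 CPM. *Mapt*, which encodes the axonal MAP tau, was at 9.25 and 10.7 CPM against 41.6 and 140 CPM, and *Mtap6*, the cold-stabilizing STOP protein, at 1.68 and 0.884 CPM against 10.2 and 30.7 CPM. In all 6 genes P1 GFP- replicate 2 held 3 to 4 times the level of replicate 1 and GFP+ libraries lay below both. The log2 differences were -3.56 for *Tubb3*, -3.88 for *Stmn2*, -3.61 for *Stmn3*, -4.29 for *Stmn4*, -3.08 for *Mapt* and -3.83 for *Mtap6*, with p-adj by edgeR from 0.00321 to 0.00520. Without P1 GFP- replicate 2 they were -2.28, -2.67, -2.35, -3.08, -1.98 and -2.80, and without replicate 1 the first 5 were -4.25, -4.54, -4.29, -4.96 and -3.74. *Mtap6* moved to -4.45 without P1 GFP+ replicate 1.

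Most of the neuron markers were lower in P1 GFP+ cells as well, but *Rbfox3* overlapped between the fractions. *Syt1* was at 115 CPM in both P1 GFP- libraries. It made up much of the GFP+ sums that follow, at 57.9 and 48.2 CPM at P1 and 65.3 and 79.6 CPM at P6. The 10 markers summed to 111 and 103 CPM in P1 GFP+, 296 and 692 CPM in P1 GFP-, 101 and 151 CPM in P6 GFP+ and 222 and 180 CPM in P6 GFP- cells, and none of the 10 was at 0 in any library. P1 GFP- replicate 2 thus stood highest in the summed markers and in *Tubb3*, *Stmn2*, *Stmn3*, *Stmn4*, *Mapt* and *Mtap6* alike, and the part of neurons in their differences was not tested. The dendritic MAPs varied less between the P1 GFP- libraries. *Mtap1a* was at 9.62 and 8.16 CPM in GFP+ and 75.4 and 136 CPM in GFP- cells, a log2 difference of -3.45 (SE 0.30, p-adj = 0.000268 by edgeR). *Mtap2* was at 41.0 and 38.0 CPM against 155 and 208 CPM, a log2 difference of -2.09 (SE 0.16, p-adj = 0.000151 by edgeR). *Mtap1b*, the MAP of growing axons, was at 175 CPM in both GFP+ libraries and at 175 and 364 CPM in GFP- cells and did not pass.

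**Figure D2:**
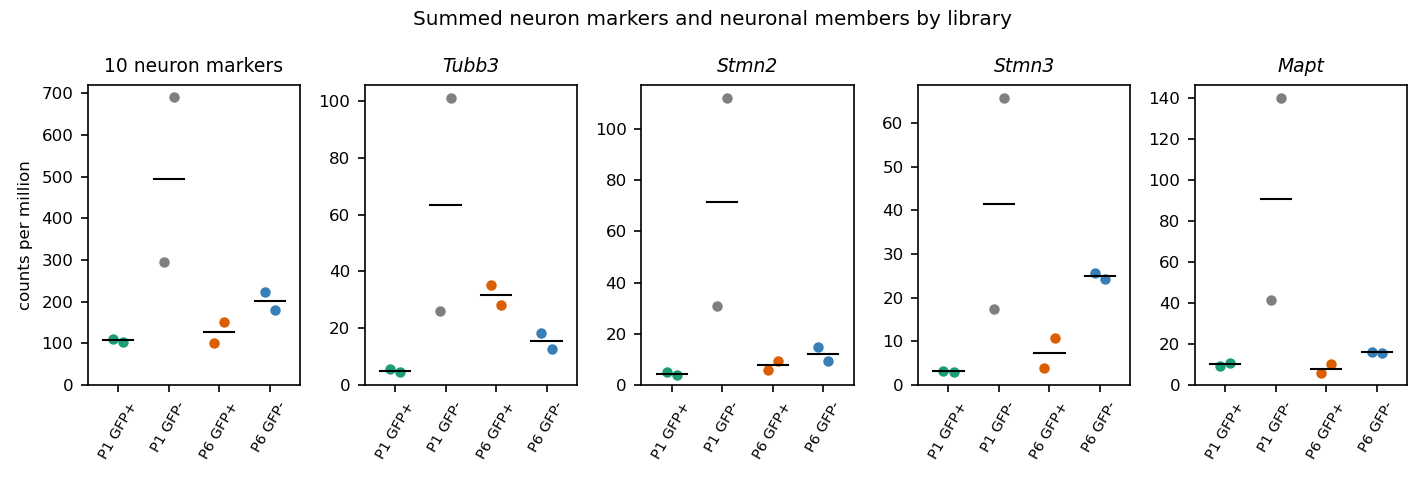
Summed level of the 10 neuron markers and levels of *Tubb3*, *Stmn2*, *Stmn3* and *Mapt* in CPM (y axis, from 0 on each panel's own scale) in the 4 groups (x axis), with a point for each library and a line at the group mean. P1 GFP- replicate 2 is the highest point of every panel, and *Tubb3* differs from the rest in that both P6 GFP+ libraries, at 35.2 and 28.2 CPM, lie above both P6 GFP- libraries.

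At P6 most of the called members were higher in GFP+ cells, with tubulins, *Tppp* and *Stmn1* at their head. Of 36 members tested, 19 passed, 12 of them higher and 7 lower, where 33.5% of all 18294 genes passed, 15.5% higher and 17.9% lower. By the study's criteria 8 members were higher and 0 lower, where 7.98% of all genes met them, 4.88% higher and 3.10% lower. These 8 were *Tppp*, *Tubb2b*, *Stmn1*, *Tubb2c*, *Tubb2a*, *Mtap7*, *Tuba1a* and *Tuba8*, the last having been tested only because of its P6 GFP+ counts. The members' median difference was nonetheless -0.24 on the log2 scale, against -0.02 over all genes. Of 5 alpha-tubulins tested, 4 were higher and 0 lower, *Tuba8* among the 4, and of 7 beta-tubulins 4 were higher and 3 lower. Of 7 gamma-tubulins and complex proteins, *Tubgcp2* alone passed, at -0.68 on the log2 scale. Without P6 GFP+ replicate 2 the count was 29, with 13 higher and 16 lower, where 51.1% of all genes passed, 23.0% higher and 28.1% lower. It was 11 without P6 GFP- replicate 1 (10 higher), where 13.0% of all genes passed, and 10 without P6 GFP- replicate 2 (8 higher), where 10.8% passed.

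*Tppp* showed the largest member difference at P6. It was at 121 CPM in both P6 GFP+ libraries and at 2.92 and 2.94 CPM in the P6 GFP- libraries, a log2 difference of 5.36 (SE 0.17, p-adj = 0.000645 by edgeR) or 41.2-fold. *Mtap7* was at 49.1 and 53.7 CPM against 12.1 and 11.7 CPM, a log2 difference of 2.10 (SE 0.16, p-adj = 0.00120 by edgeR). Both genes were thus separated between the fractions at either age, whatever library was left out. *Mtap9* was higher by 1.19 (SE 0.14, p-adj = 0.00408 by edgeR), a call that was lost without P6 GFP- replicate 2 (p-adj = 0.0581 by edgeR).

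The beta-tubulins *Tubb2b*, *Tubb2c* and *Tubb2a* were higher in P6 GFP+ cells. *Tubb2b* was at 253 and 190 CPM in GFP+ and 24.5 and 17.6 CPM in GFP- cells, a log2 difference of 3.39 (SE 0.27, p-adj = 0.00137 by edgeR). *Tubb2c* was at 1330 and 944 CPM against 178 and 155 CPM, a log2 difference of 2.77 (SE 0.28, p-adj = 0.00232 by edgeR). *Tubb2a* was at 352 and 237 CPM against 57.6 and 47.1 CPM, a log2 difference of 2.49 (SE 0.27, p-adj = 0.00295 by edgeR). In none of these isotypes did the fractions overlap, and the 3 calls held with each library left out. *Tubb3* was at 35.2 and 28.2 CPM against 18.2 and 12.6 CPM, a log2 difference of 1.03 (SE 0.25, p-adj = 0.0281 by edgeR). The summed neuron markers were at 101 and 151 CPM in the same GFP+ libraries and at 222 and 180 CPM in the GFP- libraries, and their part was not tested. The call of *Tubb3* was lost without either P6 GFP- library, with a log2 difference of 0.78 to 1.38 over the libraries left out.

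*Tuba1a* was at 1850 and 1330 CPM in P6 GFP+ and 413 and 376 CPM in P6 GFP- cells, a log2 difference of 2.01 (SE 0.27, p-adj = 0.00554 by edgeR). *Tuba1b* was at 394 and 285 CPM against 154 and 157 CPM, a log2 difference of 1.13 (SE 0.23, p-adj = 0.0156 by edgeR), so that it lay on the opposite side from its P1 difference. *Tuba1c*, the third gene of this cluster on chromosome 15, was at 65.3 and 40.5 CPM against 42.0 and 29.6 CPM, with overlap, and did not pass. *Tuba4a*, which lacks the tyrosine codon, was higher by 1.77 (SE 0.22, p-adj = 0.00416 by edgeR). *Tuba8* was at 3.88 and 2.54 CPM against 0.211 and 0.443 CPM, from 69 and 76 counts in the GFP+ libraries and 13 and 30 in the GFP- libraries. Its fitted log2 difference of 3.27, or 3.88 without P6 GFP- replicate 2, is a description, as the filter kept the gene through P6 GFP+ cells. Without P6 GFP- replicate 2 the call of *Tuba1a* was lost, and that of *Tuba1b* without either P6 GFP- library.

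*Stmn1* was at 319 and 185 CPM in P6 GFP+ and 30.5 and 28.5 CPM in P6 GFP- cells, a log2 difference of 3.09 (SE 0.31, p-adj = 0.00245 by edgeR), which held with each library left out. The markers of cycling cells were at 18.6 and 50.2 CPM in the same GFP+ libraries and at 137 and 116 CPM in the GFP- libraries, on the opposite side from *Stmn1*. *Tubb5* stayed lower in GFP+ cells, at 153 and 209 CPM against 561 and 470 CPM, a log2 difference of -1.52 (SE 0.23, p-adj = 0.00748 by edgeR). *Tubb6* was at 4.39 and 10.1 CPM against 27.9 and 23.3 CPM, a log2 difference of -1.82 (SE 0.39, p-adj = 0.0186 by edgeR).

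The other neuronal members were lower in P6 GFP+ cells or did not pass, and in all of them P6 GFP+ replicate 2 lay above replicate 1. *Stmn3* was at 3.77 and 10.7 CPM against 25.6 and 24.2 CPM, a log2 difference of -1.77 (SE 0.45, p-adj = 0.0316 by edgeR). *Mtap6* was at 2.87 and 7.93 CPM against 16.3 and 15.7 CPM, a log2 difference of -1.56 (SE 0.45, p-adj = 0.0450 by edgeR), and *Mapt* at 5.57 and 10.0 CPM against 16.2 and 15.5 CPM, a log2 difference of -1.02 (SE 0.31, p-adj = 0.0497 by edgeR). In these 3 genes both GFP+ libraries lay below both GFP- libraries, with replicate 2 nearer to them. *Mtap1a* was at 6.08 and 35.4 CPM against 83.0 and 73.1 CPM and did not pass (p-adj = 0.0903 by edgeR), while without P6 GFP+ replicate 2 it was called at -3.66 on the log2 scale and without replicate 1 at -1.12 (p-adj = 7.23e-10 and 4.70e-05 by edgeR). *Stmn2* was at 5.74 and 9.51 CPM against 14.9 and 9.51 CPM and *Stmn4* at 0.281 and 0.670 CPM against 1.20 and 1.00 CPM, and neither passed. Without P6 GFP+ replicate 2 the log2 difference was -2.70 for *Stmn3*, -2.46 for *Mtap6*, -2.55 for *Tubb4* and -2.52 for *Tubb6*. With either P6 GFP- library left out, the calls of *Stmn3*, *Mtap6*, *Mapt*, *Tubb6* and *Tubgcp2* were lost, and that of *Tubb4* without P6 GFP- replicate 1, with p-adj of all calls lost at P6 between 0.052 and 0.25.

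**Figure D3:**
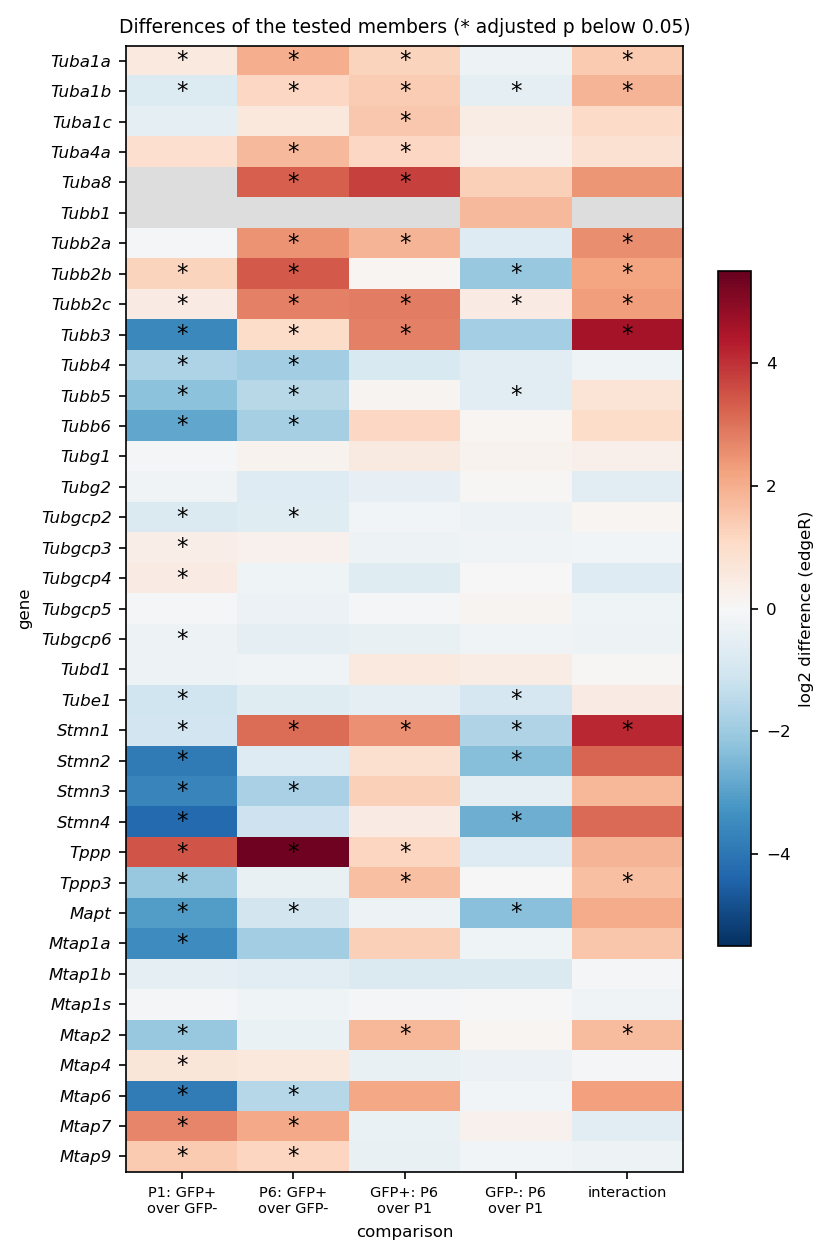
Log2 differences by edgeR (color, red above 0 and blue below 0) of the 37 members tested in at least 1 comparison (rows, by role) in the 5 comparisons (columns), with a star where p-adj was below 0.05 and grey where a member was not tested. The GFP+ age column holds 12 stars, all of them on higher levels at P6, and the GFP- age column holds 9 stars, 8 of them on lower levels.

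Within GFP+ cells, several alpha- and beta-tubulin transcripts rose between P1 and P6. Of 36 members tested, 12 were higher at P6 and 0 lower, where 20.4% of all 17213 genes passed, 12.1% higher and 8.31% lower. The median difference of the members was 0.51 on the log2 scale, against 0.00 over all genes. The 12 were the 5 alpha-tubulins tested, of which *Tuba8* was tested only because of its counts at P6, the beta-tubulins *Tubb2a*, *Tubb2c* and *Tubb3*, both TPPP genes tested, *Stmn1* and *Mtap2*. No gamma-, delta- or epsilon-tubulin and no gamma-tubulin complex gene passed by edgeR or by DESeq2, and 3 of the 7 gamma-tubulin and complex genes had an unadjusted p below 0.05 by edgeR. DESeq2 called 13 higher and 0 lower, and 21 members had an unadjusted p below 0.05 by edgeR. The shares of all genes under DESeq2 and at an unadjusted p below 0.05 are not given here, so these counts are a description. By the study's criteria 3 were higher and 0 lower, where 2.56% of all genes met them, 1.63% higher and 0.930% lower. Without P1 GFP+ replicate 2 the count was 5, where 3.76% of all genes passed. It was 25 without P6 GFP+ replicate 1 (20 higher and 5 lower), where 25.9% of all genes were higher and 21.3% lower, and 25 without P6 GFP+ replicate 2 (15 higher and 10 lower), where 27.8% were higher and 26.7% lower.

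*Tubb2c* led the rise by level and was called with every library left out. It went from 172 and 174 CPM at P1 to 1330 and 944 CPM at P6, a log2 difference of 2.81 (SE 0.24, p-adj = 0.00373 by edgeR) or 7.04-fold. In GFP- cells it went from 129 and 145 CPM to 178 and 155 CPM, a log2 difference of 0.47 (SE 0.13, p-adj = 0.0437 by edgeR). *Tubb3* went from 5.48 and 4.38 CPM to 35.2 and 28.2 CPM in GFP+ cells, a log2 difference of 2.77 (SE 0.23, p-adj = 0.00377 by edgeR), and *Stmn1* from 48.6 and 44.7 CPM to 319 and 185 CPM, a log2 difference of 2.53 (SE 0.30, p-adj = 0.00811 by edgeR). The 10 neuron markers summed to 111 and 103 CPM at P1 and 101 and 151 CPM at P6 in these cells. Of these markers *Nefh* was higher at P6 (2.36 and 2.37 CPM, then 6.70 and 19.3 CPM) and *Rbfox3* lower, by 2.55 and -2.11 on the log2 scale (p-adj = 0.0296 and 0.0280 by edgeR), and the other 8 did not pass. The part of neurons in the rise of *Tubb3* was not tested. *Tubb2a* rose by 1.86 (SE 0.23, p-adj = 0.00904 by edgeR), whereas its near copy *Tubb2b*, at 220 and 225 CPM and then 253 and 190 CPM, had overlapping libraries and did not pass.

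*Mtap2*, a MAP best known from dendrites, rose in GFP+ cells from 41.0 and 38.0 CPM to 117 and 150 CPM, a log2 difference of 1.84 (SE 0.15, p-adj = 0.00362 by edgeR). *Tppp3* went from 10.4 and 11.1 CPM to 34.6 and 29.0 CPM, a log2 difference of 1.66 (SE 0.18, p-adj = 0.00631 by edgeR), and *Tppp* from 53.7 and 60.1 CPM to 121 CPM in both libraries, a log2 difference of 1.19 (SE 0.12, p-adj = 0.00513 by edgeR). Among the alpha-tubulins, *Tuba1a* rose by 1.21, *Tuba1b* by 1.39, *Tuba1c* by 1.48 and *Tuba4a* by 1.12 on the log2 scale, with p-adj by edgeR from 0.0124 to 0.0289. *Tuba8* had 17 and 2 counts in the P1 GFP+ libraries and 69 and 76 at P6, a fitted log2 difference of 3.74, or 5.35 without P1 GFP+ replicate 1, given as a description. Without P1 GFP+ replicate 2 the calls of *Tppp*, *Tppp3* and the 5 alpha-tubulins were lost, and those of *Tuba1a* and *Tuba4a* without replicate 1 as well (p-adj between 0.0512 and 0.204 by edgeR). *Mtap2*, *Stmn1*, *Tubb2a*, *Tubb2c* and *Tubb3* were called with each library left out.

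Within GFP- cells the called members mostly fell. Of 37 members tested, 9 passed, 1 higher and 8 lower at P6, where 19.1% of all 18920 genes passed, 11.3% higher and 7.87% lower. *Tubb2b* alone met the study's criteria, which 1.85% of all genes met, 1.43% higher and 0.418% lower. It went from 70.0 and 136 CPM to 24.5 and 17.6 CPM, a log2 difference of -2.10 (SE 0.32, p-adj = 0.00629 by edgeR). *Stmn1* went from 95.9 and 116 CPM to 30.5 and 28.5 CPM, a log2 difference of -1.65 (SE 0.13, p-adj = 0.000739 by edgeR). These 2 calls held with each library left out. The markers of cycling cells went the same way, from 513 and 453 CPM to 137 and 116 CPM, and their part was not tested.

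*Stmn2* (30.8 and 112 CPM at P1, 14.9 and 9.51 CPM at P6), *Stmn4* and *Mapt* fell by 2.35, 2.70 and 2.32 on the log2 scale in GFP- cells, with p-adj by edgeR of 0.0295, 0.0209 and 0.0201. Their libraries did not overlap between the ages, and the summed neuron markers were 296 and 692 CPM at P1 and 222 and 180 CPM at P6. Without P1 GFP- replicate 2 the differences were -1.16, -1.49 and -1.22, against -3.02, -3.35 and -2.96 without replicate 1. *Tubb5* fell by 0.61, *Tuba1b* by 0.51 and *Tube1* by 0.94 on the log2 scale, with p-adj by edgeR of 0.0401, 0.0168 and 0.0262. These small changes depend on the scaling in size, because scaling to library totals moved the median of all genes by -0.19 in this comparison. Without either P6 GFP- library the calls of *Mapt*, *Stmn2*, *Stmn4*, *Tuba1b*, *Tubb2c*, *Tubb5* and *Tube1* were lost, leaving 2 in each case, where 5.79% of all genes passed without replicate 1 and 8.25% without replicate 2, and that of *Tubb2c* was also lost without P1 GFP- replicate 1. The count was 17 without P1 GFP- replicate 1, all lower, where 11.1% of all genes were higher and 10.8% lower. It was 15 without P1 GFP- replicate 2, with 6 higher and 9 lower, where 13.9% were higher and 11.1% lower.

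The GFP+ to GFP- ratio was then set against its value at the other age, by a test of the interaction between age and fraction on the 8 libraries together. Of 36 members tested, 9 passed and all 9 had a higher ratio at P6, where 6.38% of all 19233 genes passed, 3.60% in that direction and 2.79% in the other. The median over the members was 1.03 on the log2 scale, against 0.03 over all genes. *Stmn1* differed by 4.16 (SE 0.37, p-adj = 0.00134 by edgeR), and its ratio changed sides, from -1.07 at P1 to 3.09 at P6. *Tubb3* differed by 4.59 (SE 0.79, p-adj = 0.0151 by edgeR), from -3.56 to 1.03, and by 3.39 without P1 GFP- replicate 2 or 5.30 without replicate 1. *Tuba1b* differed by 1.87 (SE 0.26, p-adj = 0.00640 by edgeR), from -0.76 to 1.13.

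*Tubb2a* (2.55), *Tubb2c* (2.32), *Tubb2b* (2.16) and *Tuba1a* (1.46) went from a ratio near or modestly above 0 to a high one on the log2 scale. *Mtap2* (1.72) and *Tppp3* (1.67) went from a ratio of about -2 at P1 to -0.36 and -0.39 at P6, where neither gene passed the test between the fractions. *Tppp*, with log2 ratios of 3.46 and 5.36, *Mtap7*, with 2.69 and 2.10, and *Tubb5*, with -2.27 and -1.52, did not pass the test of the difference. *Stmn1*, *Tppp3* and *Tubb2c* were called with each library left out. The count was 4 without P1 GFP+ replicate 1, P1 GFP+ replicate 2 or P6 GFP- replicate 1 and 5 without P6 GFP- replicate 2, where 1.67% to 1.87% of all genes passed. It was 14 without P1 GFP- replicate 1, where 4.67% passed, and 14 without P6 GFP+ replicate 1, where 13.3% passed. Without both P6 GFP+ replicate 2 and P1 GFP- replicate 2 it was 16, with 12 higher and 4 lower, where 9.51% of all genes were higher and 9.70% lower.

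**Figure D4:**
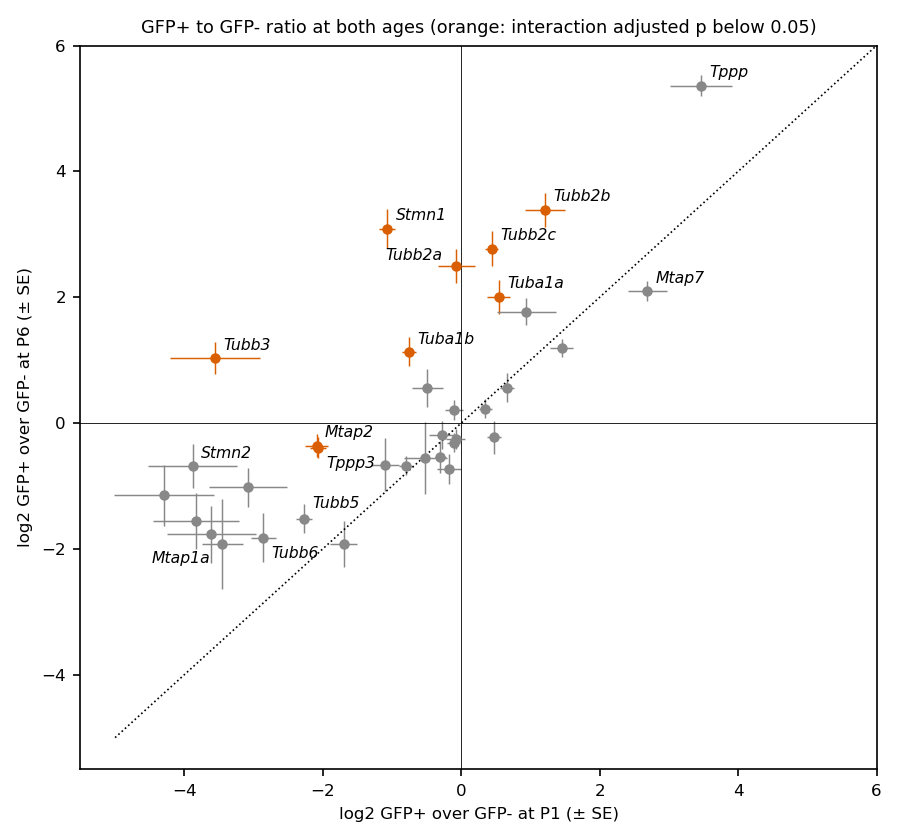
Log2 ratio of GFP+ to GFP- cells at P1 (x axis) and at P6 (y axis) for the members tested at both ages, with bars of 1 SE by edgeR and a dotted line of equal ratios, orange where the interaction passed. The 9 orange points all lie above the line, with *Stmn1* at -1.07 and 3.09 and *Tubb3* at -3.56 and 1.03 farthest from it.

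The sum of the alpha- and beta-tubulin genes was 0.159% and 0.160% of all gene counts in P1 GFP+ and 0.451% and 0.333% in P6 GFP+ cells, against 0.195% and 0.250% in P1 GFP- and 0.153% and 0.133% in P6 GFP- cells. Both P6 GFP+ libraries lay above the other 6. The make-up of the beta-tubulins, taken per kilobase of exon, differed with it. *Tubb2c* gave 26.0% and 26.2% of beta-tubulin transcripts in P1 GFP+ cells and 60.1% and 57.3% in P6 GFP+ cells, against 13.9% and 11.4% in P1 GFP- and 24.7% and 25.9% in P6 GFP- cells. *Tubb2b* gave 36.1% and 36.8% in P1 GFP+ and 12.4% and 12.5% in P6 GFP+ cells, a smaller share at P6 although its CPM was about the same. *Tubb5* gave at most 16.8% in P1 GFP+ and 4.32% and 7.98% in P6 GFP+ cells, against 47.3% to 56.9% in the 4 GFP- libraries. The tail with 10 glutamate codons shown for *Tubb2c* thus belonged to the beta-tubulin with the largest counted share in P6 GFP+ cells. Reads common to *Tubb2a* and *Tubb2b* were left out of the counts. The shares of these 2 isotypes may therefore be too low and that of *Tubb2c* too high.

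Across age in GFP+ cells, the alpha-tubulins differed in amount more than in counted make-up. Their summed level was 913 and 923 CPM at P1 and 2370 and 1700 CPM at P6. Between the fractions at P1 it was the counted make-up that differed. The sums overlapped there, with 735 and 944 CPM in GFP- cells, while the counted shares of *Tuba1a* and *Tuba1b* did not. Reads common to *Tuba1a*, *Tuba1b* and *Tuba1c* were left out of the counts, so the shares of all alpha-tubulins are uncertain. *Tuba1a* gave 81.5% to 83.1% of alpha-tubulin transcripts per kilobase in P1 GFP+ and 80.5% to 80.6% in P6 GFP+ cells, and 64.5% to 70.3% in the 4 GFP- libraries. *Tuba1b* gave 12.6% to 15.2% in the GFP+ libraries and 22.7% to 31.6% in the GFP- libraries. *Tuba4a* and *Tuba8*, which encode no terminal tyrosine, gave at most 2.13% and 0.125% in any library.

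**Figure D5:**
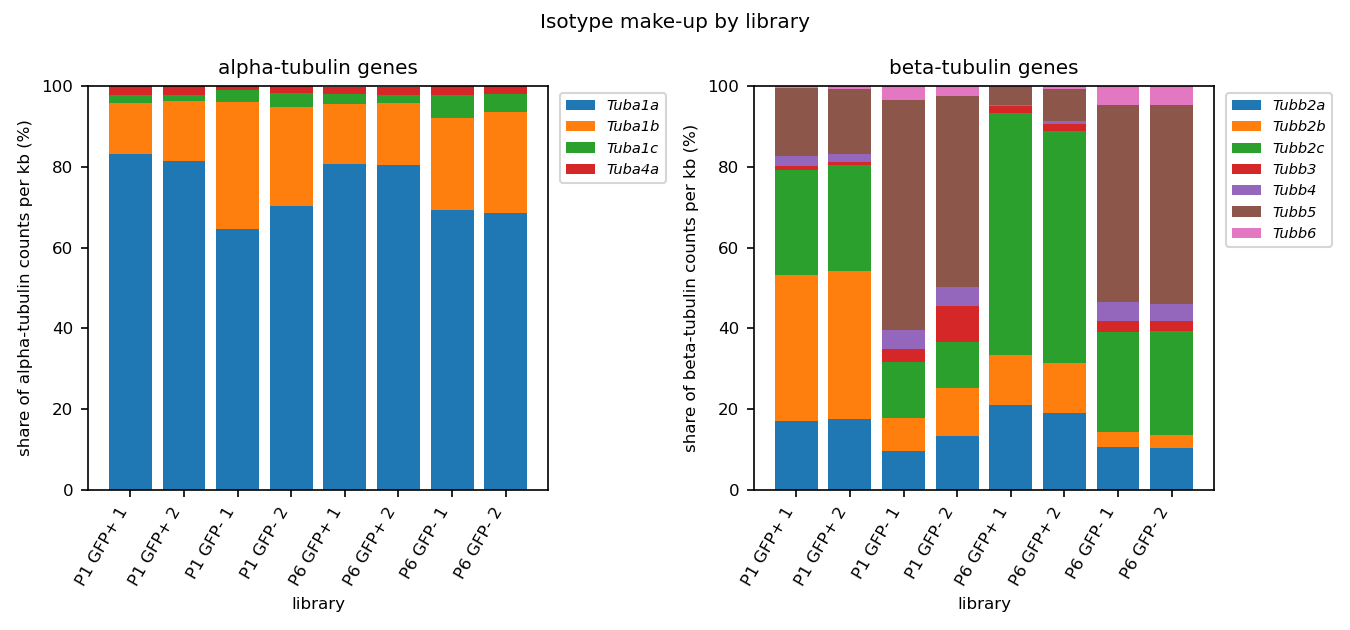
Share of each isotype in the alpha-tubulin (left) and beta-tubulin (right) counts per kilobase of exon, in percent (y axis) for the 8 libraries (x axis), with genes under 1% in every library left out of the legend. *Tubb2c* (green, right) takes 60.1% and 57.3% in P6 GFP+ cells and *Tubb5* (brown, right) 47.3% to 56.9% in the GFP- libraries, while *Tuba1a* (blue, left) leads in all 8.

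Other genes of the microtubule system came from a list of 84 names, of which 79 had counts. That list was also set with earlier results known, and the study had named *Tsga14* and *Shroom1* among its candidates. At P1, 25 were higher and 20 lower of 77 tested (58.4%, against 53.6% of all genes), and at P6, 16 were higher and 9 lower of 77 (32.5%, against 33.5%). In GFP+ cells 11 were higher and 12 lower at P6 of 76 tested (30.3%, against 20.4%), and in GFP- cells 2 were higher and 20 lower of 78 (28.2%, against 19.1%). The interaction passed for 8 in the higher and 3 in the lower direction of 78 tested (14.1%, against 6.38%).

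*Tsga14*, now called *Cep41*, which is needed for tubulin glutamylation in cilia, was at 904 and 1000 CPM in P1 GFP+, 15.4 and 25.0 CPM in P1 GFP-, 2200 and 1960 CPM in P6 GFP+ and 15.4 and 14.3 CPM in P6 GFP- cells. Its log2 difference was 5.66 at P1 (SE 0.26, p-adj = 2.91e-05 by edgeR) and 7.12 at P6 (SE 0.29, p-adj = 0.000645 by edgeR). *Shroom1*, a member of the Shroom family of cytoskeletal proteins, was higher by 3.54 at P1 and 3.07 at P6, and *Gas2*, which links microtubules to actin, by 3.11 at P6. *Ttll10*, a tubulin tyrosine ligase-like enzyme, was higher by 3.26 at P1, or 3.92 without P1 GFP- replicate 2. Lower at P1 were *Dclk3* (-4.49) and the kinesins *Kif2c* (-4.32) and *Kif18b* (-4.26), whose mean levels in GFP- cells were 4.16, 15.9 and 16.4 CPM. With age, *Dclk3* (3.59) and *Mid1ip1* (2.95) were higher and *Dpysl4* (-2.55) lower in GFP+ cells. *Dclk3* had 8 and 4 counts in P1 GFP+, 120 and 325 in P1 GFP- and 29 and 68 in P6 GFP+ cells and entered both tests only through the group where it was high, so its values are a description, and its call across age was lost without P1 GFP+ replicate 2 (p-adj = 0.0731 by edgeR). *Dcx*, the doublecortin of migrating neurons, was at 34.9 and 129 CPM in P1 GFP- and at 3.50 and 3.18 CPM in P6 GFP- cells, a log2 difference of -4.43, or -3.21 without P1 GFP- replicate 2 and -5.09 without replicate 1. The log2 differences given here over all libraries without a p-adj had a p-adj below 0.01 by edgeR and an SE between 0.15 and 0.59.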

How the data were processed

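RNA-seq counts of 8 libraries from sorted cochlear cells were used. The deposited values are raw counts per gene, which the authors obtained without normalization after alignment to mm9 (NCBIM37). The processing notes name TopHat 1.4.0 and HTSeq, and the counting mode is not given in the sources used here. Reads on no gene (13.8% to 25.6%), on several genes (2.05% to 2.53%) and aligned at several places (7.41% to 9.6%) were left out of library totals and tests. The NCBIM37 annotation held 34391 of the 36536 genes and gave symbols, positions, exon lengths and coding sequences. Gene counts were 17769024 to 67695039, so that 1 CPM stands for 17.8 to 67.7 counts. Nothing in the labels ties the replicates to separate litters or days, so p-values measure the spread between these libraries, which may be technical.

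Each comparison was fitted on its 4 libraries with edgeR 4.0.16 in R 4.3.3, with filterByExpr (minimum count 10, minimum total 15), TMM, the quasi-likelihood test and Benjamini-Hochberg adjustment over all genes tested. The interaction was fitted on all 8 libraries. The SE is the log2 difference divided by the square root of F. Alternatives were DESeq2 1.42.0 (test and size factors), library totals, no filter, all 8 libraries, a replicate block, a threshold of 0.01, the study's criteria and leaving out each library. A crossed block and an interaction without 2 libraries were chosen after seeing the data.

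The members and lists were chosen with earlier results of these data known. The coding ends of some alpha-tubulins are not reported here. Values in each library were given for members past the study's criteria, past the interaction test or highest per kilobase in their role group, and for their near copies. Of the other microtubule genes, the 3 past the study's criteria with the largest change per direction were named. No label says whether the replicate numbers pair the libraries, and they were not used as pairs. The deviations of like-numbered libraries correlated at -0.326 to 0.0609 across genes. With 2 libraries per group this cannot settle whether they were paired. Figures were drawn with Python 3.11.15 and matplotlib 3.10.9.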

Additional observations from a re-analysis of the deposited data

Results flagged for a closer look

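The ratio of GFP+ to GFP- cells differed between P1 and P6, by edgeR's interaction test, in 9 members. The differences (log2 ratio at P6 minus that at P1) were 4.59 for *Tubb3*, 4.16 for *Stmn1*, 2.55 for *Tubb2a*, 2.32 for *Tubb2c*, 2.16 for *Tubb2b*, 1.87 for *Tuba1b*, 1.72 for *Mtap2*, 1.67 for *Tppp3* and 1.46 for *Tuba1a*. In the fits without 1 or 2 libraries *Stmn1* ranged from 3.67 to 4.52 and *Tubb2c* from 2.01 to 2.57, and these genes and *Tppp3* were called in every one of them. The call of *Tuba1a* was lost in 5 of those fits, with p-adj of 0.0876 to 0.18 by edgeR.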

How the results depend on the processing

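No difference of a member changed direction under any alternative while called. The number of members called was 13 at P1, 8 at P6, 3 in GFP+ cells across age and 1 in GFP- cells across age by the study's criteria. Of all genes tested, 17.8%, 7.98%, 2.56% and 1.85% met these criteria in the same order. At a p-adj below 0.01 the number of members was 11 at P6, 7 and 2 across age in GFP+ and GFP- cells, and 5 for the interaction. With no filter on low counts it was 20 (GFP+ age), 15 (GFP- age) and 21 (interaction). It was 5 in GFP- cells across age with all 8 libraries in the fit, and 14 for the interaction by DESeq2. With 1 library left out, the counts ranged from 19 to 30 at P1, 10 to 29 at P6, 5 to 25 in GFP+ and 2 to 17 in GFP- cells across age, and 4 to 14 for the interaction, or 16 without P6 GFP+ replicate 2 and P1 GFP- replicate 2. A lone library in such a fit was assumed to vary like its comparison group. The share of all genes called moved with the library left out as well. That share is not given for most settings of this section. The counts here therefore describe how the calls depend on the setting and are no result about the members. The cause of these moves was not tested.

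The replicate numbers were not taken as a pairing. A replicate block gave 26, 20, 12 and 6 called members in the 4 comparisons of groups and 7 for the interaction. With the numbers crossed, it gave 13 in GFP+ and 15 in GFP- cells across age. Scaling to library totals gave 7 higher and 17 lower at P1, 12 and 5 at P6, and across age 12 and 1 (GFP+) or 0 and 11 (GFP-), so *Tubb2c* in GFP- cells was not called there. Members with under 100 counts in a library, such as *Tuba8*, are limited by depth.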
